A study of Mus musculus with 6 samples.

Results

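The transcripts of the constitutive proteasome were examined in 4T1, a carcinoma line of the mouse mammary gland, from sequencing of total RNA. Genes were taken by symbol: every gene of the deposited count table whose symbol starts with Psm, 1 of the letters a to g and a number was kept, apart from the 3 immunoproteasome subunits (Psmb8, Psmb9 and Psmb10) and 4 pseudogene symbols. This gave 47 of 48587 listed genes. One of them, Psmc3ip, encodes a meiotic recombination factor and is no proteasome gene (log2 fold change -0.12, SE 0.11, edgeR adjusted p = 0.41), which left 46. They were grouped by role into the alpha ring (8 genes), the beta ring (8), the ATPases (6), the lid and base (14), the activators (5) and the inhibitor and assembly chaperones (5).

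Both groups of cells were 4T1. METTL7A1 cells carried a stably transfected full-length Mettl7a1 cDNA, FLAG-tagged in the study, in a vector with a CMV promoter (pBICEP-CMV-2), and were kept in G418. Mock cells, stably transfected with the empty vector, were their controls. Each group had 3 libraries, labelled as biological replicates. Whether either line was 1 clone or a pool is not given in the sources used here, so a difference between the groups cannot be told apart from a difference between the 2 lines. The study also assayed proteasome activity in these cells and reported no difference between mock and METTL7A1 cells. Specificity of that assay was checked with Ixazomib, which blocks the chymotrypsin-like site. Assays of the other active sites are not described. The comparison here is of the transcripts alone and asks whether their levels differed between the groups.

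The proteasome degrades proteins tagged with ubiquitin. Its core is a barrel of 2 outer alpha rings and 2 inner beta rings, and 3 beta subunits in each inner ring carry the active sites. A regulatory cap unfolds the substrates with a ring of ATPases and holds ubiquitin receptors and a deubiquitinase in its base and lid; activators of the Psme family can take the place of this cap. When proteasome activity is too low, the transcription factor NRF1 (gene Nfe2l1) raises the transcription of many subunit genes together, a response known in many cell types. In cells exposed to interferon, 3 inducible beta subunits replace the constitutive active ones.

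The transfected gene followed the labels in every library: Mettl7a1 counts were 6355, 11358 and 10398 in the METTL7A1 libraries (replicates 1 to 3, the order used throughout) and 30, 30 and 29 in the mock libraries. Reads of the cDNA and of the endogenous gene were not separated. Libraries held 18386780 to 28459338 counts. Abundances are counts per 1000000 (cpm) on library sizes scaled by TMM, and every adjusted p comes from edgeR's quasi-likelihood test with Benjamini-Hochberg adjustment over the 13166 genes tested. All 5 mammary epithelial markers were detected (summed 1895 to 2240 cpm in METTL7A1 and 1710 to 2078 cpm in mock cells). Leukocyte markers summed to at most 0.527 cpm, with Cd3e at 0 in all libraries, and endothelial markers to at most 0.892 cpm. Among the fibroblast markers, Lum was at 0 in all libraries and only Pdgfra passed the abundance filter (24.5 cpm in METTL7A1 and 17.7 cpm in mock cells). Counts from the ribosomal repeat (AY036118 and Gm42418) took 0.87%, 2.98% and 4.94% of the METTL7A1 libraries and 14.16%, 5.65% and 1.48% of the mock libraries. The part of these shares in the results was not tested. In bulk RNA a lower level cannot be told apart from fewer cells that express the gene.

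In METTL7A1 cells the transcripts of the core subunits Psma6, Psma3, Psmb5 and Psmb6, of the lid subunit Psmd6 and of the activator Psme3 were lower than in mock cells, with log2 fold changes from -0.81 to -0.51. A further 7 subunit transcripts were lower by smaller amounts, from -0.32 to -0.21, and the assembly chaperone Psmg2 was higher. Of the 46 genes, 44 passed the filter of at least 1 cpm in at least 3 libraries. At an adjusted p under 0.05 (edgeR), 14 of the 44 were called (31.8%), beside 42.1% of all tested genes. In this count 13 were lower (29.5%), where 21% of all genes were lower, and 1 was higher (2.27%), where 21.1% of all genes were higher. The log2 fold change was below 0 in 36 of 44 (81.8%; 52.9% of all genes), with a median of -0.18 (all genes, -0.03) and a range from -0.81 to 0.55. No member passed the study's thresholds (adjusted p under 0.01 and a log2 fold change beyond 1.5), which 2.48% of all genes passed. The same 0 was found by DESeq2 and limma's voom. The METTL7A1 libraries did not overlap the mock libraries for 19 members (43.2%; 51.6% of all genes), lying below mock in 16 (25.6% of all genes) and above it in 3 (25.9% of all genes).

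The number of calls depended on single libraries. It was 9 (20.5%) without METTL7A1 replicate 2 or without mock replicate 1, where 29.1% and 32.7% of all genes were called, and 20 (45.5%) without mock replicate 3, where 44.5% were called. Within each group the members went up and down together: METTL7A1 replicate 3 was the highest of its group for 40 of 44 members (37.8% of all genes) and METTL7A1 replicate 1 the lowest for 38 (41.3%), while mock replicate 2 was the highest for 36 (38.9%) and mock replicate 3 the lowest for 38 (46.4%). The summed abundance of all 46 genes was 3415, 3639 and 3874 cpm in METTL7A1 and 4169, 4429 and 3804 cpm in mock cells. Its means were 3643 ± 230 and 4134 ± 314 cpm (SD, n = 3 each), and the groups overlapped because METTL7A1 replicate 3 lay above mock replicate 3.

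**Figure D1:**
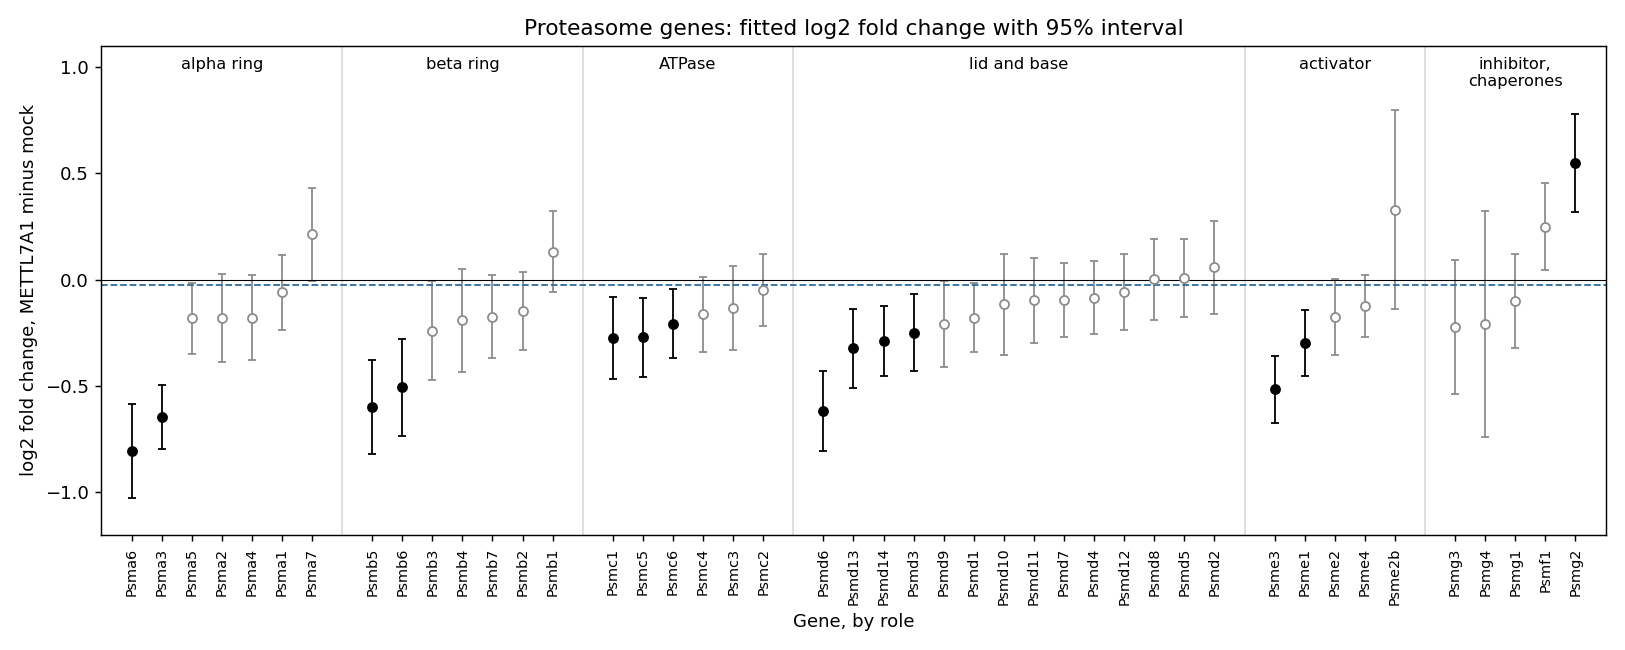
Fitted log2 fold change (METTL7A1 minus mock, y axis) of the 44 tested proteasome genes, grouped by role (x axis), with 95% intervals; filled points are called at an adjusted p under 0.05 (edgeR) and the dashed line is the median of all genes (-0.03). Of the 44 genes 36 lie below 0, from Psma6 (-0.81) upward, and Psmg2 (0.55) is the only called gene above it.

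The alpha ring, whose subunits form the gate of the core particle, had 7 tested genes with a median log2 fold change of -0.18. Of these, 2 were called, both lower (28.6%, beside 21% of all genes). Coordinates are those of the table (mm10). Psma6 (chromosome 12, 55384222 to 55418454) had 87.0, 99.2 and 110.3 cpm in METTL7A1 replicates 1 to 3 and 163, 193 and 162 cpm in mock replicates 1 to 3. Every METTL7A1 library was below every mock library, and the fitted difference was the largest of any member (-0.81 on the log2 scale, SE 0.10, edgeR adjusted p = 9.63e-05). Psma3 (chromosome 12, 70974621 to 70996347) had 92.3, 92.2 and 96.8 cpm against 148, 154 and 138 cpm. Again the groups were well apart (-0.65, SE 0.07, edgeR adjusted p = 3.54e-05), and Psma3 had the smallest adjusted p of the members.

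The other tested alpha subunits were not called. Psma5 (-0.18), Psma2 (-0.18), Psma4 (-0.18) and Psma1 (-0.06) had values below 0, and for Psma5 the groups did not overlap although its adjusted p was 0.0739 (edgeR). Psma7 was the exception in sign (0.21, edgeR adjusted p = 0.108), and was called as higher without METTL7A1 replicate 1 (0.31, edgeR adjusted p = 0.0156). Psma8, the alpha subunit of the testis proteasome, had 0 counts in all libraries, so that levels of 0.102 to 0.164 cpm (3 counts in the deepest and the shallowest library, counting error only) could have been missed.

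The beta ring had 7 tested genes with a median of -0.19 and 2 calls, both of active site subunits. Both were lower (28.6%, beside 21% of all genes). Psmb5 (chromosome 14, 54614120 to 54617995), which carries the chymotrypsin-like site, had 17.8, 20.3 and 20.6 cpm in METTL7A1 and 32.7, 30.5 and 26.2 cpm in mock cells. The 3 METTL7A1 values were close together and all below the lowest mock value (-0.60, SE 0.10, edgeR adjusted p = 0.000773). Psmb6 (chromosome 11, 70525386 to 70527649), which carries the caspase-like site, had 52.7, 61.0 and 62.2 cpm against 85.3, 94.0 and 71.0 cpm, again without overlap (-0.51, SE 0.10, edgeR adjusted p = 0.00261). Psmb7, the trypsin-like subunit, had 79.3, 87.0 and 93.3 cpm against 93.6, 109 and 90.3 cpm. Its groups overlapped, and the difference was not called (-0.17, 95% interval -0.37 to 0.02, edgeR adjusted p = 0.14).

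The 4 other tested beta subunits have no active site. Psmb3 (-0.24), Psmb4 (-0.19) and Psmb2 (-0.15) were below 0 and uncalled, and Psmb1 was above it (0.13, edgeR adjusted p = 0.253). Psmb11, the active subunit of the thymus proteasome, had at most 2 counts in any library and was not tested. The counts of Psmb5 are less certain than those of the other beta subunits, because 71.7% of its stretches of 31 bases also occur in other transcripts. Other members share sequence too, among them Psma5 (58.7%), Psme2 (33.5%), Psmc1 (32.2%), Psmd2 (31.6%), Psmb3 (21.7%) and Psma3 (19.5%). For Psmb5, 59.8% of the stretches occur in the processed pseudogene Gm3375 on chromosome 7. Gm3375 itself had 9.43, 11.1 and 11.2 cpm in METTL7A1 and 16.4, 16.7 and 12.4 cpm in mock cells (-0.52, SE 0.13, edgeR adjusted p = 0.00944). The sum of the pair was 27.2, 31.4 and 31.8 cpm against 49.1, 47.2 and 38.6 cpm, which did not overlap either.

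**Figure D2:**
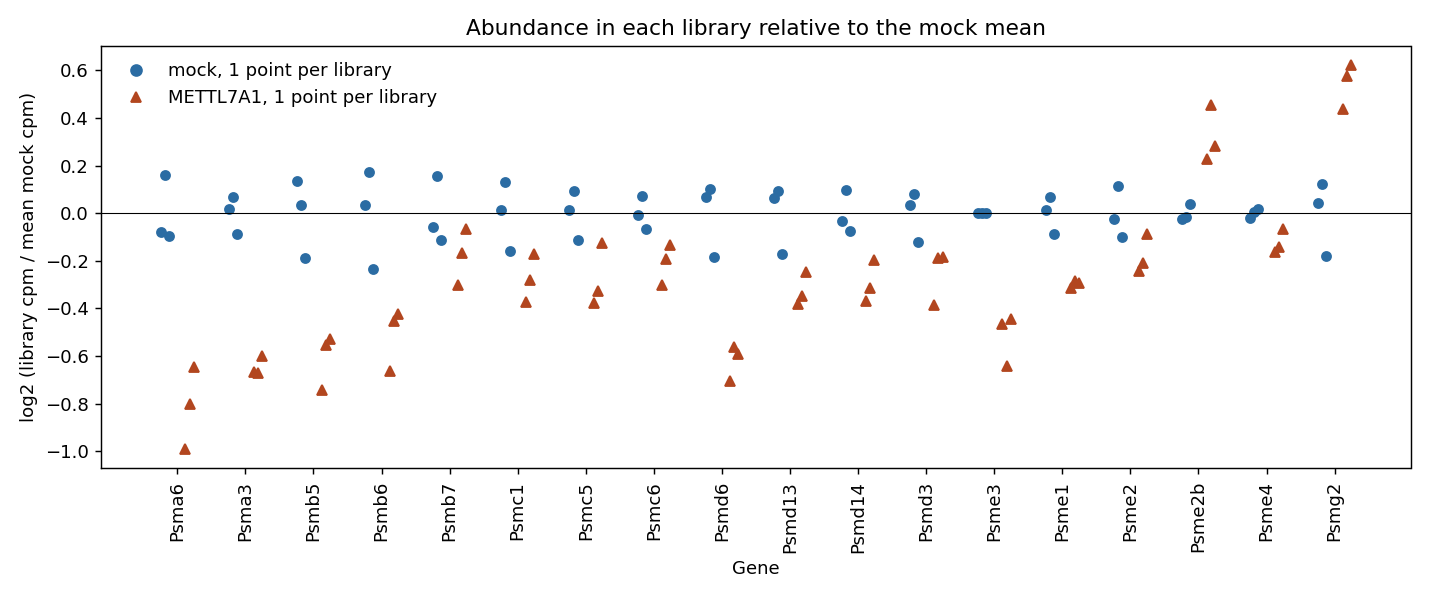
Abundance of each library relative to the mean of the mock libraries (log2 ratio of cpm, y axis) for the called members of each role, Psmb7 and all activators (x axis), with 1 point per library, circles for mock and triangles for METTL7A1. For Psma6, Psma3, Psmb5, Psmb6, Psmd6 and Psme3 all 3 METTL7A1 libraries lie below all mock libraries, for Psmg2 above them, and for Psmb7 and Psme2 the groups overlap.

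NRF1 and the related NRF2 bind the antioxidant response element, whose core is written here as TGACNNNGC. The 120 bases before the transcription start are shown for those of the 6 most lowered members that have a single RefSeq start within 30 bases of the start in the count table, in lower case with a match to this motif in capitals (RefSeq, GRCm38.p6; 5′ to 3′ on the strand of the gene). They show which of the lowered genes hold the motif close to the start and which do not:
Psma3, chr12:70974503-70974622, plus strand: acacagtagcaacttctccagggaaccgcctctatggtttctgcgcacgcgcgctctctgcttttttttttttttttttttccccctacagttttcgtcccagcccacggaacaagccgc
Psmb5, chr14:54617996-54618115, minus strand: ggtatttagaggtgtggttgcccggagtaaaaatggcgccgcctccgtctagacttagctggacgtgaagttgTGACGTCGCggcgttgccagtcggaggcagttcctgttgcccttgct
Psme3, chr11:101316093-101316212, plus strand: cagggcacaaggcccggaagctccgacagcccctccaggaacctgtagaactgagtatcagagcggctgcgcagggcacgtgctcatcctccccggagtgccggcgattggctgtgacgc
Psmb6, chr11:70525237-70525356, plus strand: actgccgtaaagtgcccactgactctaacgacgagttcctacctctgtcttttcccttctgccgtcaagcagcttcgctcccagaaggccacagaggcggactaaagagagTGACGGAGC

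The match lay 47 to 39 bases before the start of Psmb5 and 9 to 1 bases before that of Psmb6. Over the full promoter windows of RefSeq (250 bases before to 50 after the start, both strands), TGACNNNGC occurred in 6 of the 38 members matched by symbol (15.8%: Psmb5, Psmb6, Psmc6, Psmd9, Psmd12 and Psme4), beside 12.4% of all 32851 promoters. A member counted when any of its promoters held the motif, whereas the share of all promoters counts each promoter by itself. These shares are therefore not like for like. A match is a description of the letters only.

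The 6 ATPases form the ring at the base of the cap that unfolds substrates. All 6 had values below 0 (median -0.18), beside 52.9% of all genes. Of the 6, 3 were called, all lower (50%, beside 21% of all genes), each with a modest difference. Psmc1 had 138, 147 and 159 cpm in METTL7A1 and 181, 196 and 160.5 cpm in mock cells (-0.27, SE 0.09, edgeR adjusted p = 0.0278). Psmc5 had 72.3, 74.9 and 86.0 cpm against 94.6, 100.1 and 86.8 cpm (-0.27, SE 0.08, edgeR adjusted p = 0.0235). Psmc6 had 132, 142 and 148 cpm against 162, 171 and 155 cpm (-0.21, SE 0.07, edgeR adjusted p = 0.042). For all 3 the highest METTL7A1 library lay just under the lowest mock library. Psmc4 (-0.16), Psmc3 (-0.13) and Psmc2 (-0.05) were uncalled with overlapping groups. Replicates 1 and 2 of either group were each needed for the calls of Psmc1, Psmc5 and Psmc6, which were lost when any 1 of these 4 libraries was left out (edgeR adjusted p from 0.0577 to 0.13).

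In the lid and base, 4 of 14 genes were called, all lower (28.6%, beside 21% of all genes). The median of the 14 was -0.11. Psmd6 (chromosome 14, 14112184 to 14120984), a structural lid subunit, had 63.0, 69.6 and 68.3 cpm in METTL7A1 and 108, 110.2 and 90.4 cpm in mock cells. The groups were well apart (-0.62, SE 0.09, edgeR adjusted p = 0.000218). Psmd13, also of the lid, had 43.2, 44.1 and 47.3 cpm against 58.7, 60.0 and 49.9 cpm (-0.32, SE 0.08, edgeR adjusted p = 0.00969). Psmd14, the deubiquitinase of the lid that removes the ubiquitin chain before degradation, had 80.0, 83.1 and 90.2 cpm against 101, 110.5 and 98.1 cpm (-0.29, SE 0.08, edgeR adjusted p = 0.00968). Psmd3, another lid subunit, had 122, 140 and 140 cpm against 163, 168 and 146 cpm (-0.25, SE 0.08, edgeR adjusted p = 0.0305).

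The groups did not overlap for these 4 called genes, but only Psmd6 was called whichever library was left out. Among all 14 genes of this group, 5 did not overlap, these 4 and the uncalled Psmd1, beside 51.6% of all genes. Psmd3 was lost on leaving out any of those same 4 libraries (log2 fold change -0.28 to -0.18), Psmd13 without mock replicate 1 (-0.28, edgeR adjusted p = 0.0506) and Psmd14 without METTL7A1 replicate 2 (-0.28, edgeR adjusted p = 0.05). The 10 uncalled genes of this group ranged from -0.21 to 0.06. They include the large base subunits Psmd1 (-0.18) and Psmd2 (0.06), the ubiquitin receptor Psmd4 (-0.08), the lid subunits Psmd7 (-0.09), Psmd8 (0.00), Psmd11 (-0.10) and Psmd12 (-0.06), and the assembly chaperones Psmd5 (0.01), Psmd9 (-0.21) and Psmd10 (-0.12).

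The activators bind the ends of the core particle in place of the ATPase cap. Psme3 (chromosome 11, 101316213 to 101323537), the subunit of the nuclear activator PA28 gamma, had 85.4, 75.6 and 86.6 cpm in METTL7A1 and 118 cpm in each mock library. No library of one group came near the other (-0.51, SE 0.07, edgeR adjusted p = 0.000215). Psme1, the alpha subunit of the interferon-inducible activator PA28, had 37.7, 38.5 and 38.3 cpm against 47.3, 49.2 and 44.2 cpm and was also lower (-0.30, SE 0.07, edgeR adjusted p = 0.00599). Psme2, its beta subunit, had 34.0, 34.8 and 37.9 cpm against 39.5, 43.5 and 37.5 cpm. Here METTL7A1 replicate 3 lay above mock replicate 3, and the difference was not called (-0.18, 95% interval -0.35 to 0.00, edgeR adjusted p = 0.105).

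Psme4, the large activator PA200, had 171, 173 and 182 cpm in METTL7A1 and 188, 191 and 193 cpm in mock cells, which did not overlap, but the difference was small and uncalled (-0.12, edgeR adjusted p = 0.166). Psme2b, a copy of Psme2, had 1.56, 1.83 and 1.62 cpm against 1.31, 1.32 and 1.37 cpm (0.33, SE 0.21, edgeR adjusted p = 0.24). Its groups did not overlap, but it shares 76.5% of its 31-base stretches with Psme2, so its few counts are uncertain.

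The remaining 5 genes, an inhibitor and 4 assembly chaperones, had a median of -0.10. Psmg2, which with Psmg1 forms a chaperone that assembles the alpha ring, had 18.1, 19.9 and 20.6 cpm in METTL7A1 and 13.8, 14.6 and 11.8 cpm in mock cells. It was the only member called as higher (0.55, SE 0.10, edgeR adjusted p = 0.00163). Its partner Psmg1 was uncalled (-0.10, edgeR adjusted p = 0.456), as were Psmg3 (-0.22) and Psmg4 (-0.21), which form the other assembly chaperone. Psmf1, an inhibitor of the core particle also known as PI31, was above mock in every METTL7A1 library (21.6, 23.2 and 23.7 against 17.6, 21.3 and 18.7 cpm) and missed the threshold (0.25, edgeR adjusted p = 0.0508). It was called as higher in 7 of 15 alternative fits, including those without METTL7A1 replicate 1 (0.30) or without mock replicate 2 (0.33), but had a value of 0.03 (edgeR adjusted p = 0.842) when the median change of its 40 nearest genes on the chromosome was entered as an offset. The median of this group of 5 turned positive without mock replicate 2 (0.07).

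For the 30 uncalled members the log2 fold change lay between -0.24 and 0.33, and was below 0 in 23. The 95% interval of 27 of them stayed within 0.5 of 0 on the log2 scale; the exceptions were Psme2b, Psmg3 and Psmg4, which had the fewest counts. Exons of Psmb7, Psmc3 and Psmd13 overlap those of Nek6, Slc39a13 and Sirt3 on the opposite strand, and whether counting used strand is not stated.

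The balance of core transcripts was different in the 2 groups when compared per length (cpm per kb of exon). In mock cells Psma6 was the most abundant core transcript at 150.5 ± 15.4 cpm per kb (SD, n = 3), and its range lay above that of the next, Psma7 (115 ± 10.5). In METTL7A1 cells Psma7 was the highest at 134 ± 17.3 cpm per kb, above the range of Psmb4 (91.3 ± 9.48), and Psma6 was at rank 4 with 86.1 ± 10.2. Psmb5 was the lowest in both groups, at 34.2 ± 3.81 in mock and 22.5 ± 1.80 in METTL7A1 cells, and Psma3 the next lowest (51.5 ± 2.80 and 33.0 ± 0.934). Psmb5 is the subunit that shares sequence with Gm3375, so its level per length is uncertain in both groups. The direction of any error is not known, because the counting of shared reads is not stated. The exon length used was 2846 bases for Psma3 and at most 1241 bases (Psma1) for the other tested core subunits. Without division by length, Psma3 had a mean of 146.7 cpm in mock cells, below only Psma6 (172.8 cpm). The low rank of Psma3 therefore depends on the length used. From the highest to the lowest subunit the ratio was 4.40 in mock and 5.95 in METTL7A1 cells. In between, 10 of the 13 neighbouring pairs in the order had overlapping ranges in either group, so that most of the order is not resolved.

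As a share of the per-length sum over the 14 core transcripts, which no scaling between libraries can change, Psma6 made up 11.9%, 12.9% and 13.2% in the mock libraries and 8.14%, 8.44% and 8.71% in the METTL7A1 libraries. Psma7 went the other way, from 9.83%, 9.52% and 9.70% to 12.7%, 12.8% and 13.8%. Psmb1 was 6.78%, 6.76% and 6.94% in mock and 8.64%, 8.86% and 8.69% in METTL7A1 cells. A rise of one share lowers the others, and these shares say only that the core transcripts did not change in equal measure.

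**Figure D3:**
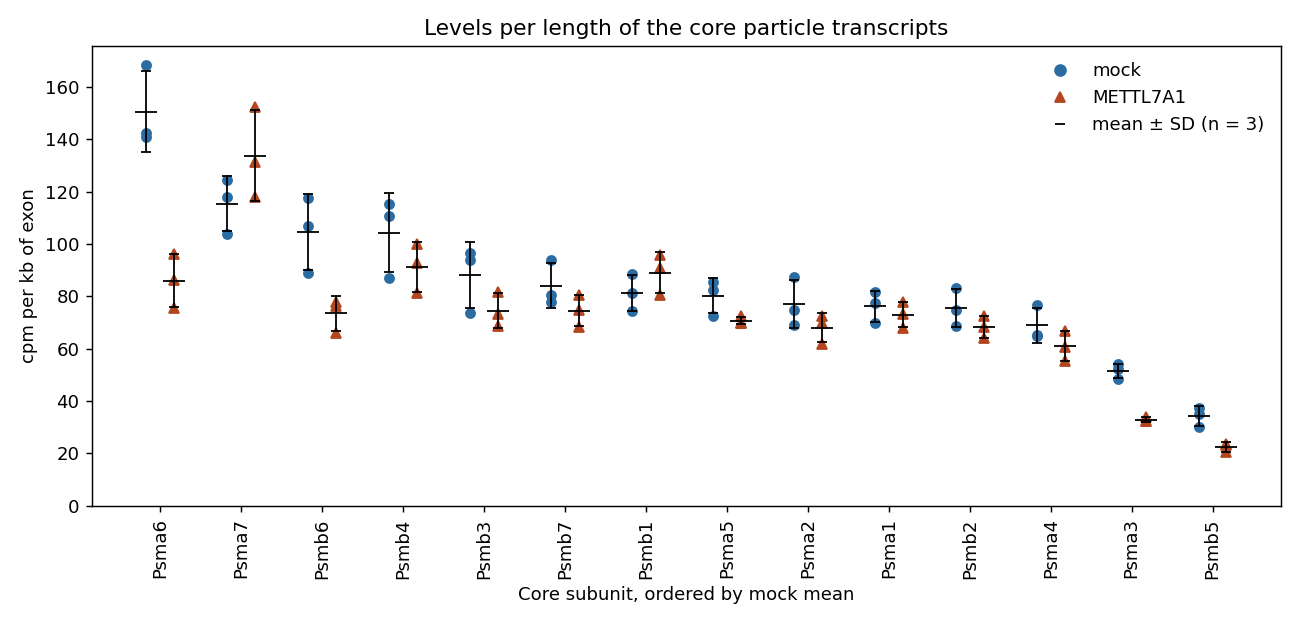
Levels of the 14 tested core transcripts in cpm per kb of exon (y axis, from 0), ordered by the mock mean (x axis), with circles for mock libraries, triangles for METTL7A1 libraries and bars for the mean ± SD (n = 3). Psma6 falls from the highest place in mock (150.5) to rank 4 in METTL7A1 cells (86.1), and Psmb5 is the lowest in both (34.2 and 22.5).

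The 3 inducible subunits that replace the active constitutive ones were set beside their partners within each library. Psmb8, the partner of Psmb5, had 15.3, 18.6 and 19.5 cpm in METTL7A1 and 8.14, 9.08 and 6.72 cpm in mock cells (1.16, SE 0.14, edgeR adjusted p = 6.4e-05). Its ratio per length to Psmb5 was 0.460, 0.490 and 0.505 in METTL7A1 and 0.133, 0.159 and 0.137 in mock libraries. The means were 0.485 ± 0.0225 and 0.143 ± 0.0141 (SD, n = 3 each), a difference of 1.76 on the log2 scale (two-sided exact permutation test, p = 0.1, the smallest that 3 against 3 allow). Because Psmb5 shares sequence with Gm3375, the level of this ratio is uncertain in both groups, in a direction that is not known.

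Psmb9, the partner of Psmb6, was scarce (1.78, 2.30 and 2.56 against 1.53, 1.28 and 1.01 cpm) and higher in METTL7A1 cells (0.82, SE 0.24, edgeR adjusted p = 0.0179), a call that was lost without METTL7A1 replicate 2 (0.79) or 3 (0.72). Its ratio to Psmb6 rose in mean from 0.00900 ± 0.00139 to 0.0222 ± 0.00215 (SD, n = 3 each; exact permutation p = 0.1). Psmb10, the partner of Psmb7, was lower (-0.48, SE 0.13, edgeR adjusted p = 0.0103; lost without mock replicate 1 at -0.37), and its ratio to Psmb7 was 0.105 ± 0.00378 in METTL7A1 and 0.131 ± 0.0198 in mock cells (SD, n = 3 each; exact permutation p = 0.1). The ratio of Psme2 to Psme1 was 1.06 ± 0.0566 and 0.976 ± 0.0286 (SD, n = 3 each; exact permutation p = 0.1). With 4 ratios tested, the adjusted p was also 0.1 for each (Benjamini-Hochberg), and no ratio could pass 0.05 in this design.

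**Figure D4:**
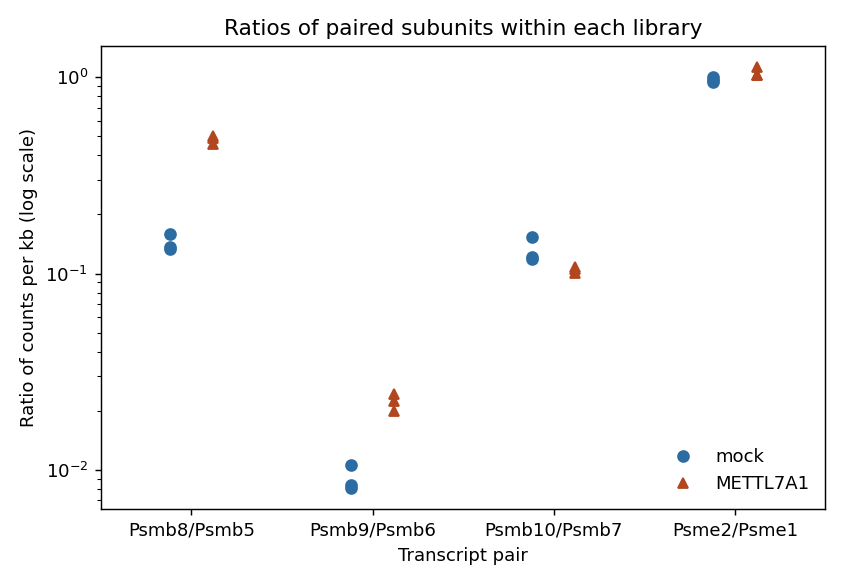
Ratio of counts per kb of 2 transcripts within each library (y axis, log scale) for 3 inducible subunits over their constitutive partners and for Psme2 over Psme1 (x axis), with circles for mock and triangles for METTL7A1. Psmb8 over Psmb5 lies between 0.460 and 0.505 in METTL7A1 and between 0.133 and 0.159 in mock libraries. The counts of Psmb5 are less certain because of the sequence it shares with Gm3375.

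Further genes of the pathway were counted from lists. Among proteasome subunits and assembly factors with other symbols, 4 of 5 were in the table (Paaf1 was not matched), and 1 was called higher and 1 lower, beside 21.1% and 21% of all genes. Pomp, the chaperone that completes the core particle, had 44.0, 45.1 and 51.4 cpm in METTL7A1 and 72.9, 80.0 and 69.3 cpm in mock cells (-0.66, SE 0.08, edgeR adjusted p = 0.000111). Akirin2, which brings proteasomes into the nucleus, was higher (0.45, SE 0.07, edgeR adjusted p = 0.000377), and the cap subunits Adrm1 (-0.05) and Sem1 (0.22) were uncalled.

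Of 5 genes that control proteasome genes, 2 were higher and 1 lower, beside 21.1% and 21% of all genes. Nfe2l1, which encodes NRF1, had 309, 392 and 386 cpm in METTL7A1 and 254, 270 and 234 cpm in mock cells, with no overlap (0.52, SE 0.10, edgeR adjusted p = 0.00187). Nfe2l2 was higher as well (0.39, edgeR adjusted p = 0.00174). Ngly1, the enzyme that strips sugar chains from NRF1 and so lets it become active, was lower (-0.59, edgeR adjusted p = 0.00221), and the protease Ddi2, which cleaves NRF1, and Vcp were uncalled. The enzymes that sit on the proteasome split into 2 higher and 3 lower, against the same shares of all genes: Usp14 (0.32) and Txnl1 (0.31) rose, and Ube3c (-0.27), Ecpas (-0.24) and Uchl5 (-0.21) fell. The call of Uchl5 held in 3 of 15 alternative fits and that of Ecpas in 10, being lost among others without METTL7A1 replicate 2 (-0.24) or 3 (-0.21). The ubiquilins, which carry ubiquitin-tagged proteins to the proteasome, were lower for Ubqln1 (-0.40, edgeR adjusted p = 0.00198) and Ubqln4 (-0.38, edgeR adjusted p = 0.00228), and Ubqln2 was uncalled (0.13, edgeR adjusted p = 0.463).

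The fold changes of the members ran along with those of the genes around them. The 44 tested genes lie on 16 chromosomes. On chromosomes 12 and 14, where the median log2 fold change of abundant genes was -0.42 and -0.28, 7 of 8 tested members were called lower (median -0.45), beside 57.4% of the 857 tested genes of these chromosomes. On all other chromosomes 6 of 36 members were lower and 1 was higher (median -0.14), beside 18.4% and 22.1% of the 12309 tested genes there. Across the 44 genes, the log2 fold change correlated with the median of the 40 nearest abundant genes (Pearson r = 0.74, a description over genes that share chromosomes and libraries). Members lay below their neighbours in 30 of 44 cases, with a median difference of -0.10.

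Some of the lowered genes were lower than their neighbours and some were not. The neighbours of Psma6 had a median of -0.48 and those of Psma3 of -0.51. For Psmb5 and Psmd6 they were at -0.30 and -0.31, for Psmb6 at -0.18 and for Psme3 at -0.04. With the neighbour median as an offset in the fit, 9 of 44 members were called (20.5%), all lower, beside 31.5% of all genes called and 13.5% called lower in the same fit. Of the 14 calls 6 were kept, those of Psmd14 (-0.28, edgeR adjusted p = 0.0148), Psme3 (-0.47, edgeR adjusted p = 0.000539), Psma6 (-0.33, edgeR adjusted p = 0.0271), Psmb6 (-0.32, edgeR adjusted p = 0.0349), Psmd6 (-0.31, edgeR adjusted p = 0.0179) and Psmb5 (-0.30, edgeR adjusted p = 0.0442), and Psmg1 (-0.29), Psmc3 (-0.28) and Psmd1 (-0.22) were newly called. Psma3 was no longer called (-0.14, edgeR adjusted p = 0.158), nor was Psme1 (0.00, edgeR adjusted p = 0.98) or Psmg2 (0.20, edgeR adjusted p = 0.169). Of the called genes named above outside the 44 members, Psmb8 (0.96), Nfe2l1 (0.59), Akirin2 (0.52) and Pomp (-0.27) were still called with the offset. So were Ube3c (-0.20), Uchl5 (-0.22) and Ubqln4 (-0.34). The calls of Psmb9 (0.60), Psmb10 (-0.29), Ecpas (-0.14), Nfe2l2 (0.16), Ngly1 (-0.25), Usp14 (-0.02), Txnl1 (0.04) and Ubqln1 (0.11) were lost.

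**Figure D5:**
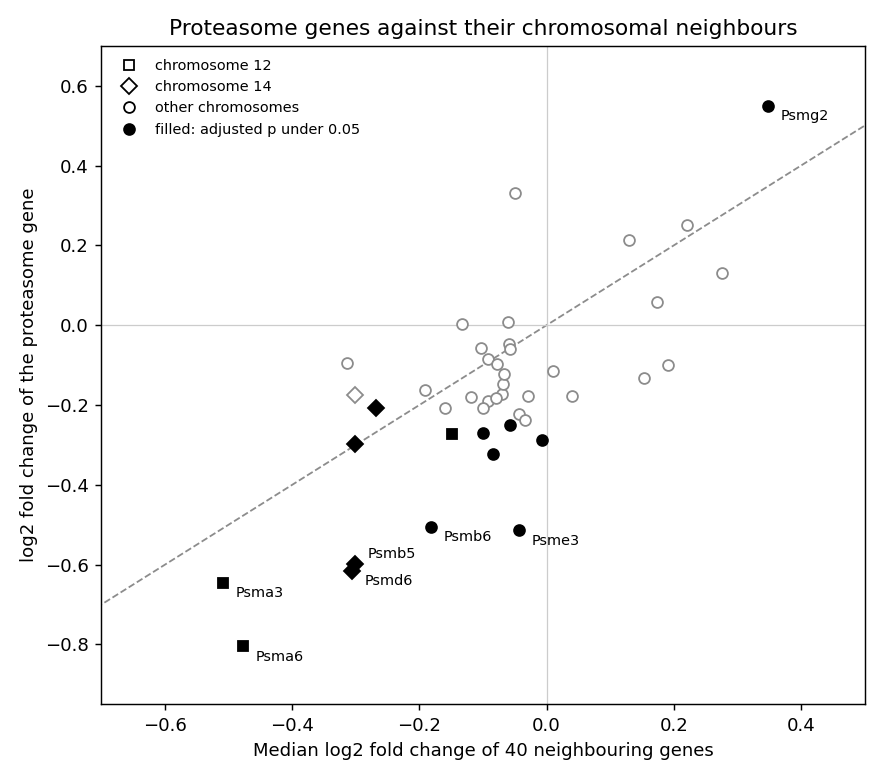
Log2 fold change of each of the 44 tested proteasome genes (y axis) against the median log2 fold change of its 40 nearest abundant genes (x axis), with squares for chromosome 12, diamonds for chromosome 14, circles for the others, filled points for genes called at an adjusted p under 0.05, and a dashed line where both are equal. Psme3 lies at -0.51 with neighbours at -0.04, and Psma3 at -0.65 with neighbours at -0.51.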

How the data were processed

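The authors sequenced stranded, ribosomal RNA-depleted libraries, trimmed reads with BBDuk, aligned them to mm10 with STAR 2.5.3a and counted them per gene with featureCounts, and deposited raw counts with exon lengths. Strand and multi-mapping settings of the counting are not given in the sources used here. No count column was of another sample.

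The main test was edgeR 4.0.16 (R 4.3.3) on genes with at least 1 cpm in at least 3 libraries, with TMM scaling, the quasi-likelihood test without covariate, Benjamini-Hochberg adjustment over 13166 genes and a call at an adjusted p under 0.05. The log base of the study's fold change threshold is not given and was taken as 2. On simulated data 200 of 200 changed genes were recovered, with 13 unchanged genes called. Recovery of differences as small as those of the members was not tested separately. Alternatives were run with DESeq2 1.42.0, limma 3.58.1 and other scalings, filters and offsets.

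Members and lists were chosen with earlier results of these data known. Values in every library are given for Mettl7a1, Psmb5, Psmb6, Psmb7, all Psme genes and the 4 called members of each role with the largest change. Gm3375, Psmf1, the core shares shown and the pathway genes given by library were chosen after their values were seen. Shared sequence was counted in GENCODE transcripts in stretches of 31 bases. Some genes of the ubiquitin list are not reported here.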

Additional observations from a re-analysis of the deposited data

How the results depend on the processing

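Of the 14 calls, those of Psma6, Psmb5, Psmb6, Psmd6 and Psme3 held in all 15 alternative fits. The number of members called moved to 9 with the neighbour offset (20.5%; 31.5% of all genes) and ranged from 9 to 20 when 1 library was left out (from 8 to 19 for members called lower). Members called higher numbered 2 with RLE scaling, upper quartile scaling, removal of the 20 most abundant genes or limma's voom, 3 without an abundance filter, 0 with the neighbour offset and 1 to 4 when 1 library was left out. With a 1.5-fold threshold on the linear scale, 4 members passed the study's limits, in place of 0. Shares of all genes are not given here for this threshold or for calls higher in these fits. These counts therefore cannot be set against all genes. With the neighbour offset the median of the ATPases was -0.057, and that of the activators changed sign to 0.003, as did the values of Psmc6 (0.061), Psme1 (0.003), Usp14 (-0.019) and Ubqln1 (0.114). The offset itself subtracts the neighbours' change. The median of the inhibitor and chaperones ranged from -0.143 to 0.072 when 1 library was left out. The labels do not say whether same-numbered libraries were prepared together. Correlations of same-numbered deviations were -0.16, 0.23 and -0.39, which do not settle it with 3 libraries per group. With the number as a replicate block, 10 members were called (22.7%; 36.5% of all genes in that fit), 9 lower and 1 higher. Psmb11 and Psma8 had too few counts for a test at this depth.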
